A study of Mus musculus with 3 samples.

Results

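The genes described here are 9 chemokine receptors, *Ccr1*, *Ccr2*, *Ccr6*, *Ccr7*, *Cxcr2*, *Cxcr3*, *Cxcr4*, *Cxcr6* and *Cx3cr1*, out of 27998 genes in the count matrices. They were chosen by symbol from a list rather than by a measured value, but with earlier results of these data known. All 9 were found, and each had counts in the kept cells of every library. Droplet scRNA-seq was run on dissociated kidneys on day 14 after FA, with 1 library from each of 2 Aoah-/- mice (numbered 2 and 3 in the labels) and 1 library from a WT mouse (numbered 3). All 3 mice received FA and were 6 to 8 weeks old according to the sample labels. The Aoah-/- mice carry a global deletion of *Aoah*, which encodes acyloxyacyl hydrolase, a lipase that inactivates bacterial lipopolysaccharide. They had been backcrossed to C57/BL6J, and WT littermates served as controls. The comparison asks where the receptors were expressed in the injured kidney and whether their levels differed in kidneys lacking AOAH.

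Chemokine receptors span the cell membrane and signal through inhibitory G proteins when a chemokine binds, and the cell then moves towards the source of that ligand. CCR2 takes monocytes from bone marrow to tissues that release CCL2 or CCL7, CXCR2 draws neutrophils to CXCL1, CXCL2 and CXCL5, and CCR7 leads mature dendritic cells and naive lymphocytes to lymph nodes. CX3CR1, whose ligand CX3CL1 can stay anchored on epithelium and endothelium, is carried by patrolling monocytes and by resident macrophages of the kidney.

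Every RNA molecule was tagged with its own barcode, a UMI, before amplification, and counts are of UMIs rather than of PCR copies. The libraries held 158551992 to 167222984 UMIs in 23072 to 25516 barcodes, and 18202 to 21368 cells per library were kept. Cells were clustered together, and leukocyte clusters were named from marker genes with the receptors and their ligands left out of the clustering. The 19342 leukocytes gave 15 named classes with 16701 cells, of which 14 had at least 20 cells in each library. In 13 of the 15 classes every marker was higher than the median of the classes in all libraries, and in CD4 T and unsplit T lymphocyte-like cells 1 marker was not. The classes had been named from these same markers in the same cells, so this count is not an independent check of the names. Barcodes with as few as 500 UMIs were present for Aoah-/- mouse 2 and for WT, whereas those of Aoah-/- mouse 3 began at 1672. Of the kept barcodes, 109 to 117 per pair of libraries were shared. The targeted gene itself, over all barcodes, had 6.06 and 5.68 UMIs per 1e+06 in the knockouts against 15.3 in WT, so that the order followed the labels. It was not at 0 in either knockout, and whether the counted end of the transcript lies outside the deleted part was not known. Doublets were kept, since the caller marked 2.55%, 0% and 1.10% of the cells and had not worked in Aoah-/- mouse 3. A class resembling large peritoneal macrophages held 1304 cells of Aoah-/- mouse 2, against 13 and 72 in the other libraries, and it was left out of all comparisons.

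Levels are in CPM, the UMIs of a receptor in all cells of a class and library divided by all UMIs of those cells and multiplied by 1e+06. Sets of 3 values run from Aoah-/- mouse 2 through Aoah-/- mouse 3 to the WT mouse. Intervals of levels are exact Poisson 95% intervals and those of shares exact Clopper-Pearson 95% intervals, and neither covers more than counting error. No test between genotypes was made, since the WT group is a single library. A difference is therefore the log2 ratio of the mean of the Aoah-/- libraries to the WT library, with the SD between the 2 Aoah-/- libraries. It was called higher or lower when each Aoah-/- library differed from WT at least 1.5-fold in 1 direction, with a Poisson interval apart from that of WT, and at least 30 UMIs in the class. Levels of different receptors were not compared with each other.

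The receptor genes lie in the GENCODE M21 annotation of GRCm38, to which the files were matched by gene identifier. *Cxcr6* (ENSMUSG00000048521; chromosome 9, 123806475 to 123811760, plus strand), *Ccr1* (ENSMUSG00000025804; chromosome 9, 123962124 to 123968692, minus strand) and *Ccr2* (ENSMUSG00000049103; chromosome 9, 124101950 to 124113557, plus strand) are neighbours, with gaps of 150.4 kb and 133 kb. *Cx3cr1* (ENSMUSG00000052336; chromosome 9, 119901616 to 120069879, minus strand) is 3737 kb from *Cxcr6*. *Cxcr2* (ENSMUSG00000026180; 74153989 to 74161246, plus strand) and *Cxcr4* (ENSMUSG00000045382; 128588199 to 128592293, minus strand) are on chromosome 1, 54427 kb apart. *Ccr6* (ENSMUSG00000040899) is on chromosome 17 from 8236043 to 8257141, *Ccr7* (ENSMUSG00000037944) on chromosome 11 from 99144196 to 99155077, and *Cxcr3* (ENSMUSG00000050232) on chromosome X from 101731535 to 101734269. *Cxcr6* overlaps *Fyco1* on the opposite strand, so that its counts may be less certain where strand was not used in counting. The annotated span of *Cx3cr1* overlaps 9 genes, of which *Gorasp1*, *Csrnp1* and *Xirp1* are on the same strand. Counts of *Cx3cr1* may be less certain too, and where exons overlap the use of strand would not separate it from these. The overlaps given for *Cxcr6* and *Cx3cr1* are of whole gene spans, and overlap of exons was not examined.

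Promoter windows of 300 bases (250 before and 50 after the annotated start) were taken from RefSeq on GRCm38.p6 and were found for 8 of the 9 receptors. The windows of *Ccr1* and *Cxcr2*, both highest in neutrophil-like cells in every library, and of *Cxcr3* and *Cxcr6*, both highest in a T lymphocyte-like class, are shown 5′ to 3′ so that genes with the same highest class can be read side by side. Capitals mark matches, on either strand, to 5 motifs of factors known from myeloid cells or T lymphocytes.
Ccr1, chr9:123968643-123968942, minus strand: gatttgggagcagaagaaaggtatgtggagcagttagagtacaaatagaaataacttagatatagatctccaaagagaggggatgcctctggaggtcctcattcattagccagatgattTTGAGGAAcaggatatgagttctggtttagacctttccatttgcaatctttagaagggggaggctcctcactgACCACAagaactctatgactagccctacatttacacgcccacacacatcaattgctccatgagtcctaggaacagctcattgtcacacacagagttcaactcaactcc
Cxcr2, chr1:74153744-74154043, plus strand: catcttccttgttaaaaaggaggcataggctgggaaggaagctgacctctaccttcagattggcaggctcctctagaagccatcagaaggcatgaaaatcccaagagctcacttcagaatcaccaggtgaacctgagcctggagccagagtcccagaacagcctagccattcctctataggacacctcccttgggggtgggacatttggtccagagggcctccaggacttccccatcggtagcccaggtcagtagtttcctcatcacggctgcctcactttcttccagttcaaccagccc
Cxcr3, chrX:101734098-101734397, minus strand: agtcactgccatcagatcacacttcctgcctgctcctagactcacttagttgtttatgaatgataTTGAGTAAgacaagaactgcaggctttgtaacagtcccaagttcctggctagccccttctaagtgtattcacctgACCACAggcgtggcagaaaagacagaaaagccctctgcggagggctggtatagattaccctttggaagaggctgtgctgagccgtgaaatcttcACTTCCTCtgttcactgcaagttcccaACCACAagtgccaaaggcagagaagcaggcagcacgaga
Cxcr6, chr9:123806227-123806526, plus strand: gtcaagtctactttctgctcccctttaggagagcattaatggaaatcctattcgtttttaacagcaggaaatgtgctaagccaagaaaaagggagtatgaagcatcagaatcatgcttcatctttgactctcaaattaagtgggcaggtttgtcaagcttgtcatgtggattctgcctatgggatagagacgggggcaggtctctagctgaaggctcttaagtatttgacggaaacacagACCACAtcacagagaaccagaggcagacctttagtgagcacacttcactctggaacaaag
The motifs were TTNNGNAA (C/EBP, in 40.7% of 32851 windows of this length), GAGGAAGT (ETS of the PU.1 type, 3.20%), TGTGGT (RUNX, 16.8%), GGTGTGA (T-box, 3.98%) and TGANTCA (AP-1, 7.81%). *Ccr1* had 1 C/EBP and 1 RUNX match, *Cxcr2* had 0 matches, *Cxcr3* had 4 matches (1 C/EBP, 1 ETS and 2 RUNX), and *Cxcr6* had 1 RUNX match. Among the receptors whose windows are not shown, *Ccr2*, *Ccr6* and *Cxcr4* held the C/EBP motif and *Ccr6* and *Cx3cr1* the RUNX motif, so that each of these motifs was in 5 of the 8 receptors with a window. A match describes the letters only, and no binding was measured in these cells.

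Within the leukocytes, the receptors differed in the class where they were highest and in how many classes they reached. The class with the highest level was the same in all 3 libraries for 6 of the 9 receptors (*Ccr1*, *Ccr2*, *Ccr7*, *Cxcr2*, *Cxcr3* and *Cx3cr1*), against 32.3% of 11212 genes with at least 100 UMIs in these classes. The genes of that background were not matched to the receptors for their number of UMIs. *Ccr6*, *Cxcr4* and *Cxcr6* changed their highest class between libraries. Leukocytes held 84.9% to 98.6% of the UMIs of a receptor in the kept cells of a library. For each receptor this share was lowest in Aoah-/- mouse 3. A cluster of 93, 1413 and 70 cells, in the order Aoah-/- mouse 2, Aoah-/- mouse 3 and WT mouse, was not counted among the leukocytes. It was led by *S100a9* and *S100a8* beside endothelial genes such as *Emcn*, and its part in the lower share was not tested. In tubule-like cells, taken as the background, the levels reached 8.15 CPM for *Cxcr4* and at most 3.76 CPM for the other receptors. The tubule-like level was lowest in the WT mouse for 8 of the 9 receptors.

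**Figure D1:**
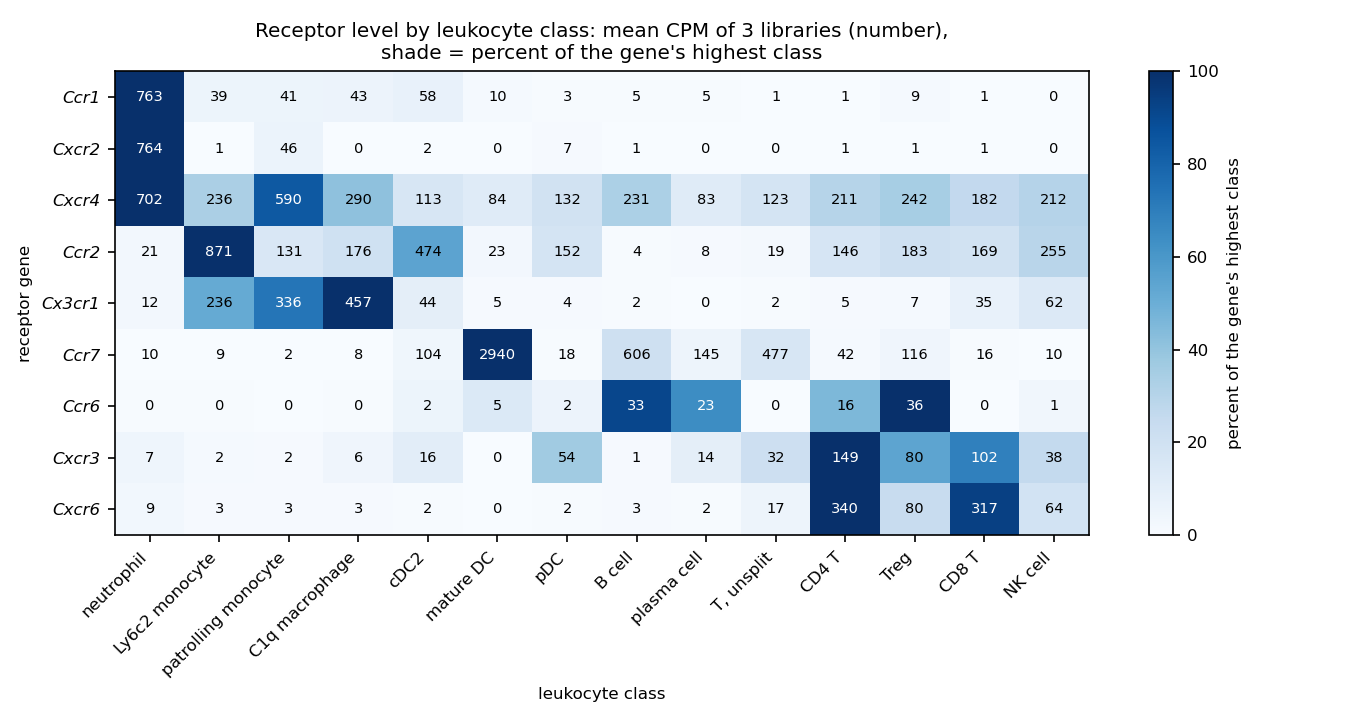
Level of each receptor (rows) in 14 leukocyte classes (columns), as the mean CPM of the 3 libraries in each cell and as the shade, which gives the percent of that receptor's highest class. *Ccr1* and *Cxcr2* stand out in neutrophil-like cells, *Ccr7* in mature dendritic-like cells, and *Cxcr4* is present across the map.

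*Ccr1*, a receptor for CCL3, CCL5 and CCL6 among others, was highest per UMI in neutrophil-like cells, which held 35.7%, 52.2% and 38.9% of its UMIs in the kept cells. The large peritoneal macrophage-like class that was left out held 39.2%, 0.713% and 11.5% of them. Its level in neutrophil-like cells was 786 (95% interval 740.4 to 834), 739 (696 to 784) and 762 (683 to 848) CPM, and the 3 intervals overlapped. The next of the 14 classes compared, conventional type 2 dendritic-like cells, was 13.2-fold lower, with 56.2, 52.6 and 64.6 CPM. This order does not cover the class that was left out. That class had 1199, 15 and 100 *Ccr1* UMIs in 1304, 13 and 72 cells, with median UMI totals of 5527, 6706 and 7115.5. Conventional type 2 dendritic-like cells had 84, 120 and 127 *Ccr1* UMIs in 202, 253 and 224 cells, with median totals of 7257.5, 8552 and 8293.5. C1q macrophage-like cells had 45.6, 45.8 and 38.3 CPM, and their order against the 2 monocyte classes could not be told from these libraries. No *Ccr1* UMI was found in natural killer-like cells, which allows up to 5.69 CPM in the shallowest library.

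*Cxcr2* was even more restricted, with 843 (795 to 892), 727 (684 to 771) and 722 (645 to 805) CPM in neutrophil-like cells and a 16.7-fold lower mean in the next class. That class, patrolling monocyte-like cells, had 58.5, 54.2 and 24.7 CPM of *Cxcr2*. The 11 neutrophil markers moved with it there, with a summed level of 3760, 4504 and 1453 CPM against 55689 to 57963 CPM in neutrophil-like cells, and 6 of the 11 were higher in both Aoah-/- libraries while *Camp* was at 0 in all 3. *Ccr1* in the same cells had 31.7, 72.2 and 18.1 CPM. The part of neutrophil RNA in these values was not tested.

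Neutrophil-like cells consisted of a pair of clusters that differed in *Ccr1* and *Cxcr2*. The smaller one, led by *Retnlg*, held 363, 232 and 108 cells, with 1375, 1263 and 1157 CPM of *Cxcr2*. The other held 429, 354 and 102 cells, with 421 (376 to 469), 416 (375 to 459) and 294 (228 to 374) CPM. *Ccr1* was also higher in the *Retnlg*-led cluster, with 949.6, 966 and 989 CPM against 657, 608 and 539. *Cxcr4* did not follow this pattern: it had 700.4, 524 and 735 CPM in the *Retnlg*-led cluster and 817, 654 and 735 in the other. The clusters were formed from genes of the same cells, so these differences are a description.

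**Figure D2:**
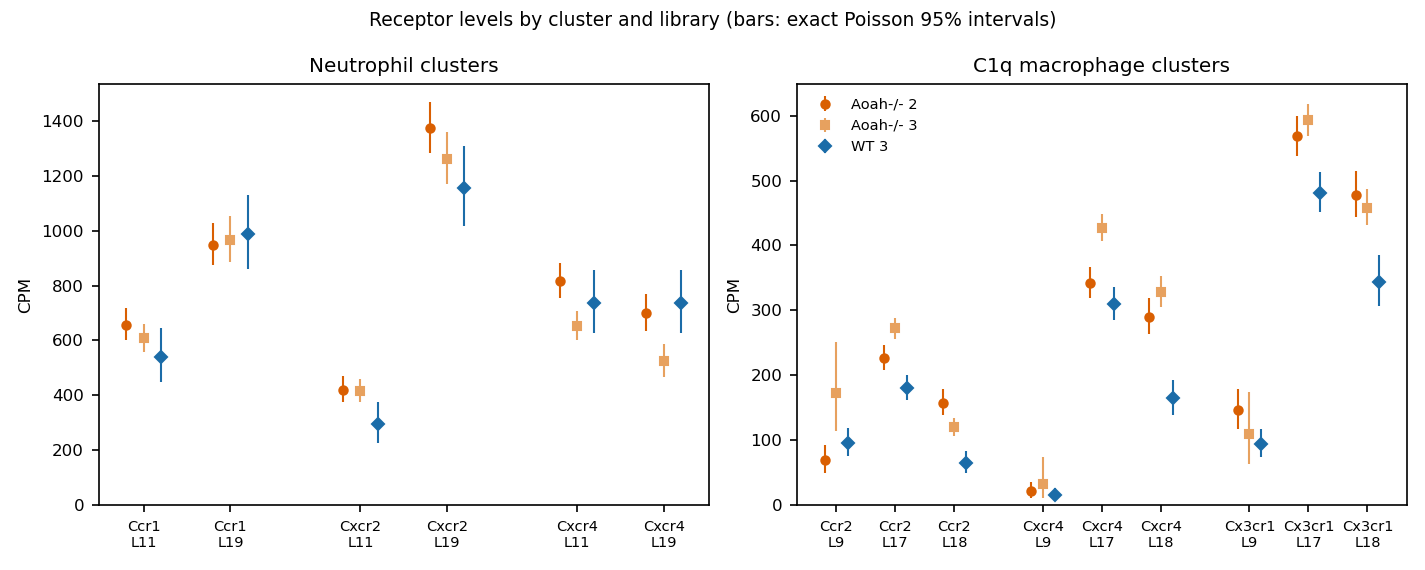
Levels in CPM of receptors by cluster and library, with exact Poisson 95% intervals as bars; L11 and L19 (led by *Retnlg*) are the neutrophil-like clusters and L9, L17 and L18 the C1q macrophage-like clusters. *Ccr1* and *Cxcr2* are higher in L19 than in L11 in every library, and *Cx3cr1* and *Cxcr4* are lowest in L9.

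At the level of single cells, *Ccr1* and *Cxcr2* were often found together. After each cell had been thinned to 1000 UMIs, *Cxcr2* was detected in 55.6%, 52.1% and 50.5% of the neutrophil-like cells with a *Ccr1* UMI, and in 39.3%, 37.8% and 38.4% of those without. For *Cxcr4* among cells with and without *Cxcr2*, the shares were closer, at 50.9% against 47.2%, 43.7% against 39.3% and 53.4% against 49.1%. Cells of a library share its depth and free RNA, so these shares are given without a test.

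*Ccr2* was highest in Ly6c2 monocyte-like cells in every library, with 1026 (967.5 to 1086), 929 (876 to 984) and 658 (596 to 725) CPM. Conventional type 2 dendritic-like cells followed with 441, 504 and 476 CPM, and natural killer-like cells with 293, 260.0 and 211 CPM. The ranges of these 3 classes over the libraries did not overlap. Below them, regulatory T lymphocyte-like cells (153, 202 and 194 CPM) and C1q macrophage-like cells (182, 214 and 133 CPM) did overlap. In 9 of the 14 classes *Ccr2* reached 50 CPM or more in every library. In B lymphocyte-like cells, by contrast, it had 5.33, 4.72 and 3.37 CPM.

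*Cx3cr1* followed the mononuclear phagocytes. C1q macrophage-like cells had 479 (459 to 499.8), 532 (514 to 549.9) and 360.2 (341 to 380.1) CPM, patrolling monocyte-like cells 269, 383 and 355 CPM, and Ly6c2 monocyte-like cells 217, 245 and 246 CPM. The first class was highest in each library, although its range over the libraries overlapped that of patrolling monocyte-like cells. Natural killer-like cells had 73.2, 70.2 and 42.8 CPM. In Ly6c2 monocyte-like cells *Ccr2* and *Cx3cr1* were detected without a common pattern: *Cx3cr1* was found in 19.7%, 19.7% and 36.2% of the thinned cells with *Ccr2* and in 22.1%, 19.8% and 17.2% of those without.

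*Cxcr4*, the receptor of CXCL12, was the most widespread, with at least 50 CPM in every library in 13 of 14 classes. Neutrophil-like cells had 765 (720.1 to 813), 606 (567 to 647) and 735 (658 to 819) CPM. Patrolling monocyte-like cells had 618 (557 to 684), 668 (612 to 728) and 485 (431 to 544) CPM and took the first place in Aoah-/- mouse 3. C1q macrophage-like cells had 279.5 (264 to 296), 381 (366 to 397) and 208 (193 to 223) CPM. The lymphocyte classes overlapped this range or lay below it. Regulatory T lymphocyte-like cells had 228, 226 and 270.4 CPM, CD4 T lymphocyte-like cells 232, 196 and 205, B lymphocyte-like cells 151, 313 and 229, and the mean was lowest among lymphocytes in unsplit T lymphocyte-like cells with 123. In the WT mouse, regulatory T and B lymphocyte-like cells were above C1q macrophage-like cells.

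*Ccr7*, which binds CCL19 and CCL21, was highest per UMI in mature dendritic-like cells. They had 3363 (3071 to 3676), 2815 (2552 to 3097) and 2642 (2374 to 2932) CPM in 31, 28 and 31 cells. The next class by its mean, B lymphocyte-like cells, was 4.85-fold lower, with 359.6 (341 to 379), 789 (741 to 840) and 668 (627 to 711) CPM. Aoah-/- mouse 2 was low there. One of the 2 B lymphocyte-like clusters held 406 cells of that library but 34 and 24 of the others, and it had 182, 500.5 and 436 CPM of *Ccr7*, while the other cluster had 614, 832 and 684. Unsplit T lymphocyte-like cells had 419, 451 and 561 CPM. Most *Ccr7* UMIs were outside the mature dendritic-like cells. B lymphocyte-like cells held 46.5%, 36.1% and 47.7% of the *Ccr7* UMIs in the kept cells. These were 1418, 1004 and 993 UMIs, against 487, 420 and 354 in mature dendritic-like cells.

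*Ccr6*, the receptor of CCL20, had the lowest counts of the list and no class at 50 CPM in every library. Regulatory T lymphocyte-like cells had 34.6, 42.0 and 31.5 CPM and B lymphocyte-like cells 39.6, 26.7 and 32.3 CPM, so their order could not be told. Plasma-like cells had 40.4, 14.2 and 14.9 CPM from 23 UMIs in all. In CD8 T lymphocyte-like cells *Ccr6* had 0 UMIs in all 3 libraries, which allows up to 2.44 CPM in the shallowest.

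*Cxcr3*, a receptor for CXCL9, CXCL10 and CXCL11 that is known from type 1 T lymphocytes, was highest in CD4 T lymphocyte-like cells with 147 (124 to 174), 169 (147 to 192) and 130.1 (112 to 150) CPM. CD8 T lymphocyte-like cells had 93.1, 108 and 106 CPM, a range that lay below that of CD4 T lymphocyte-like cells. Regulatory T lymphocyte-like cells had 71.3, 67.0 and 102 CPM, and plasmacytoid dendritic-like cells 74.2, 47.7 and 40.1 CPM. Natural killer-like cells had 33.8, 20.9 and 60.3 CPM from 67 UMIs.

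*Cxcr6*, the receptor of CXCL16, was high in both large T lymphocyte classes. CD4 T lymphocyte-like cells had 222 (193 to 255), 377 (344 to 411) and 419 (386 to 454) CPM, and CD8 T lymphocyte-like cells had 267 (247 to 287), 356 (335 to 377) and 329 (298 to 362) CPM. The ranges overlapped, and CD8 T lymphocyte-like cells were first in Aoah-/- mouse 2 alone. Natural killer-like cells (50.7, 51.2 and 88.8 CPM) and regulatory T lymphocyte-like cells (67.2, 121 and 52.5 CPM) were far lower. In CD4 T lymphocyte-like cells, *Cxcr6* was detected in 18.6%, 18.2% and 24.1% of the thinned cells with *Cxcr3* and in 16.4%, 30.2% and 32.8% of those without. In CD8 T lymphocyte-like cells it was found more often beside *Cxcr3* in all 3 libraries, in 26.1%, 28.8% and 32.3% of cells against 21.2%, 27.4% and 25.1%.

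**Figure D3:**
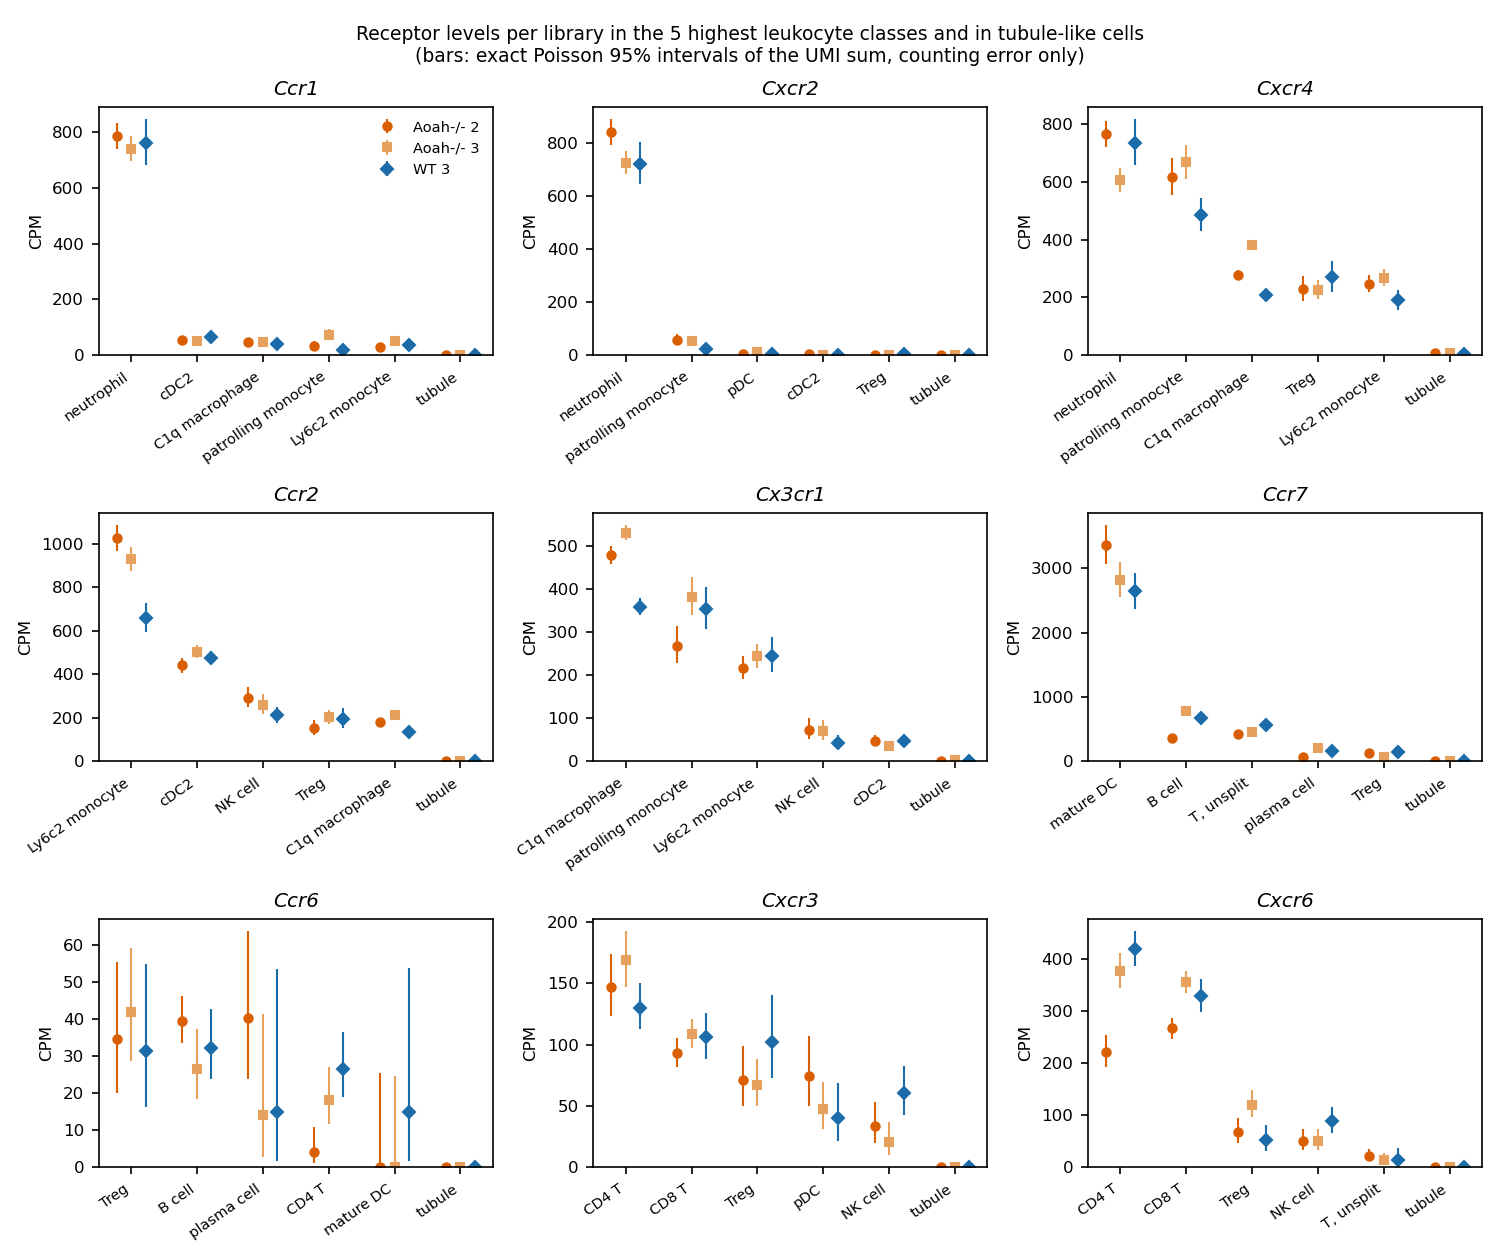
Level in CPM of each receptor in its 5 highest leukocyte classes and in tubule-like cells, with 1 point per library and exact Poisson 95% intervals as bars. The points of a receptor's first class lie far above the tubule-like cells in all 3 libraries, and for most receptors the libraries differ less than the first class differs from the fifth.

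Between the genotypes, the level of a receptor in its own highest class did not meet the rule for a call. None of the 9 receptors was called higher and none lower in the class where it was highest. Over all classes, 69 of the 126 pairs of receptor and class had at least 30 UMIs, and 1 of them was called, *Ccr2* in CD8 T lymphocyte-like cells. Among all genes, 0.934% of 90243 pairs were called higher, 0.352% lower and 1.29% in either direction. Other tested pairs were at least 1.5-fold above WT in both Aoah-/- libraries, but an interval overlapped that of WT. *Ccr2* in plasmacytoid dendritic-like cells had 212.5, 156.0 and 86.5 CPM from 196 UMIs. The rest were *Cx3cr1* in natural killer-, *Cxcr6* in C1q macrophage-, and *Ccr1* and *Cxcr2* in patrolling monocyte-like cells. Below WT the same held for *Cxcr3* and *Cxcr6* in natural killer-like cells. Both Aoah-/- libraries lay above the WT library in 28 of the 69 pairs, below it in 13 and on different sides of it in 28. Among all pairs of gene and class 43.7% had both above and 28.8% both below, so the receptors did not stand out in this count.

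The receptors of neutrophil-like cells lay near the WT level. In neutrophil-like cells the log2 ratio was 0.00 for *Ccr1* (SD 0.06), 0.12 for *Cxcr2* (SD 0.15) and -0.10 for *Cxcr4* (SD 0.24), while the median of all genes tested there was 0.15. For *Cxcr4* the Aoah-/- libraries lay on different sides of the WT library. *Ccr7* in mature dendritic-like cells had a log2 ratio of 0.23 (SD 0.18), *Cxcr3* in CD4 T lymphocyte-like cells 0.28 (SD 0.14) and *Ccr6* in regulatory T lymphocyte-like cells 0.28 (SD 0.20), each with an interval of the WT library that overlapped that of an Aoah-/- library or of both. *Cxcr6* in CD4 T lymphocyte-like cells had -0.48 (SD 0.54), and this rests on Aoah-/- mouse 2: without it the log2 ratio was -0.15. The class also held 11, 31 and 48 cells that were named interleukin-17 type T lymphocyte-like at resolution 2 and had 1046, 908 and 856 CPM of *Cxcr6*. At that resolution CD4 T lymphocyte-like cells had 177, 308 and 357 CPM and a log2 ratio of -0.56.

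A weaker rule, in which the intervals of both Aoah-/- libraries lay apart from that of the WT library at any size of difference, was met above the WT library by 6 of the 69 pairs and below it by 0. Among all pairs of gene and class 1.74% met it above and 1.15% below, and these shares also depend on the number of UMIs per gene. The 6 pairs were *Ccr2* in Ly6c2 monocyte-, CD8 T lymphocyte- and C1q macrophage-like cells, *Cxcr4* in patrolling monocyte- and C1q macrophage-like cells, and *Cx3cr1* in C1q macrophage-like cells. Of these 6, 5 were in monocyte or macrophage classes. Among all genes, 1574 pairs met the rule above the WT library. C1q macrophage-like cells supplied 737 of them, Ly6c2 monocyte-like cells 63 and patrolling monocyte-like cells 59. These classes supplied 7, 4 and 5 of the 69 receptor pairs.

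**Figure D4:**
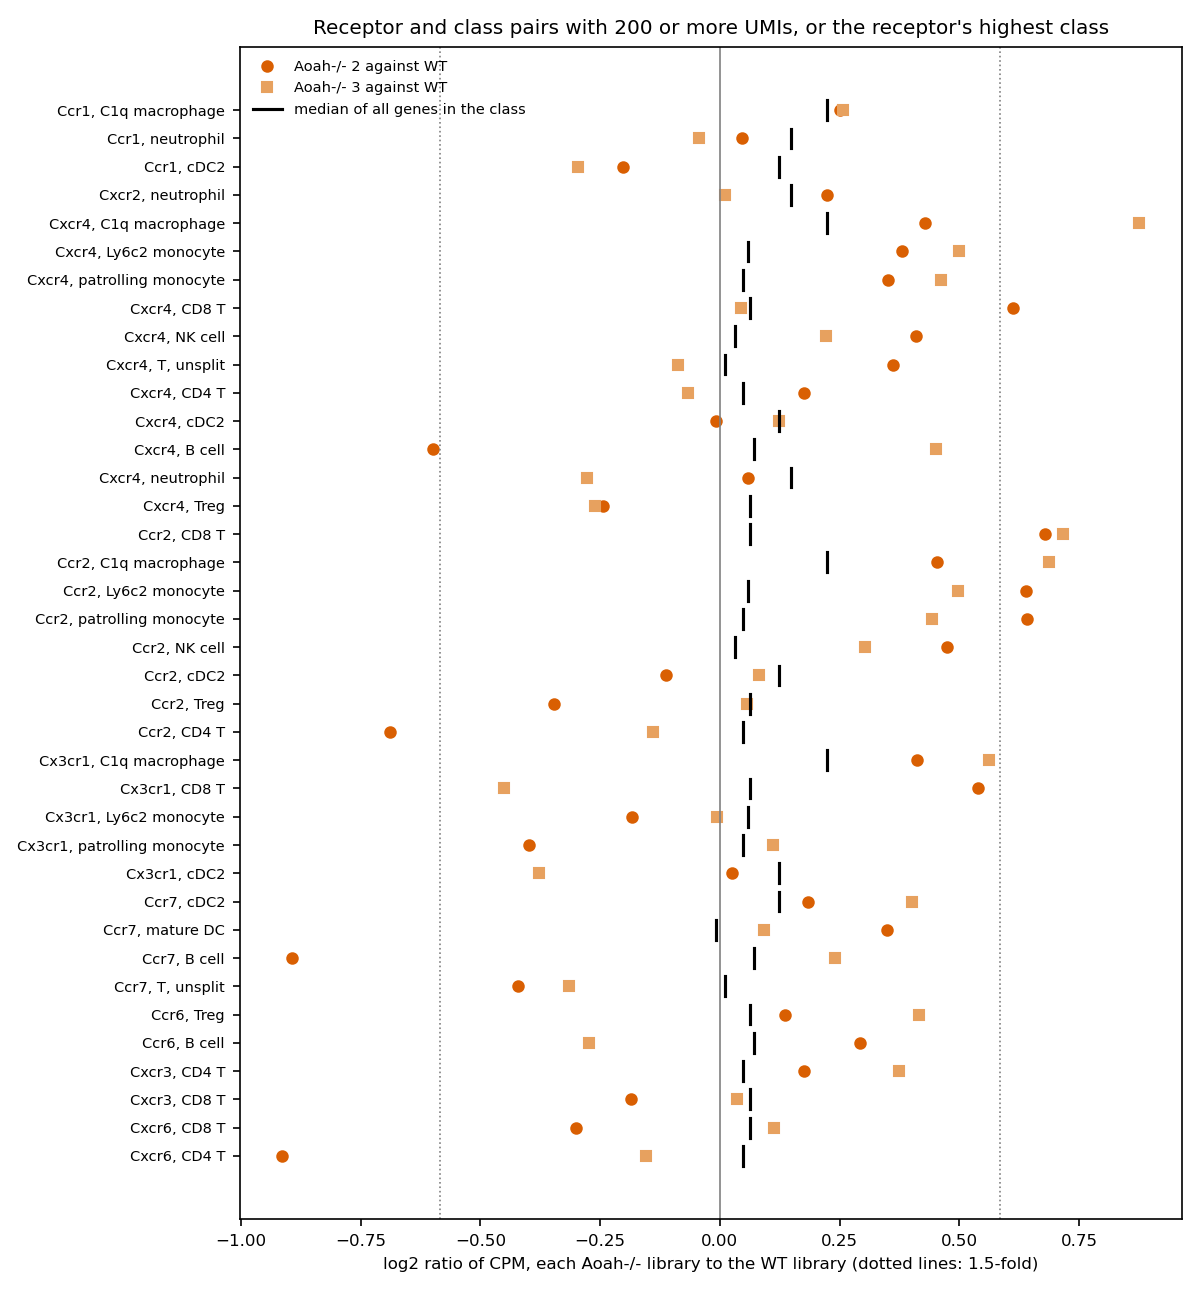
log2 ratio of each Aoah-/- library to the WT library for pairs of receptor and class with 200 or more UMIs, or in the receptor's highest class; black ticks give the median of all genes in the class and dotted lines a 1.5-fold difference. *Ccr2* in CD8 T lymphocyte-like cells is the pair with both points beyond the right dotted line, and the receptors of neutrophil-like cells lie near 0.

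*Ccr2* in Ly6c2 monocyte-like cells was 1.56-fold and 1.41-fold above the WT mouse in the Aoah-/- mice, so that 1 of the 2 reached the size of a call. The log2 ratio was 0.57 (SD 0.10) against a median of 0.06 over the genes of that class, where 0.913% of the genes had intervals apart above the WT library. Over the alternative settings it ranged from 0.50 to 0.64 and kept its sign in 13 of 13. Some of these settings could not change the sign. Both Aoah-/- libraries lay above WT, so leaving out either keeps it. Leaving out a B lymphocyte- or C1q macrophage-like cluster removes none of these cells. After thinning, 58.7% (51.6 to 65.4), 52.5% (45.7 to 59.2) and 42.3% (33.0 to 52.1) of these cells had a *Ccr2* UMI, against 0.148%, 0.610% and 0.0563% of tubule-like cells. The median UMI totals of these cells were close, at 5352, 5644 and 5651. The 11 neutrophil markers summed to 226, 249.7 and 157 CPM in them, and the 10 C1q macrophage markers to 3840, 3843 and 3765 CPM.

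*Ccr2* in CD8 T lymphocyte-like cells had 192 (175 to 209), 196 (181 to 212) and 119.6 (101 to 141) CPM, which gave a log2 ratio of 0.70 (SD 0.03). In that class 0.723% of 9125 genes were called higher, and 1.18% had intervals apart above WT. The share of thinned cells with a *Ccr2* UMI was 15.2% (13.02 to 17.5), 15.7% (13.5 to 18.1) and 8.38% (5.84 to 11.6). Clustering at resolution 2 split these cells. A part led by *Gzma* and *Klrc1*, genes known from cytotoxic lymphocytes, took 39.6%, 45.4% and 32.8% of them and had 302 (271 to 335), 286 (260 to 315) and 181 (144 to 226) CPM of *Ccr2*. The remaining CD8 T lymphocyte-like cells had 107 (91.1 to 126), 119 (103 to 137) and 86.5 (67.0 to 109.8) CPM, with intervals that overlapped that of the WT mouse. The call was lost in the CD8 T lymphocyte-like class as named at resolution 2, where the log2 ratio was 0.37. It was also lost with the mean of per-cell values, where the log2 ratio was 0.57. The 12 natural killer markers summed to 4857, 4786 and 4293 CPM in the whole class before the split.

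The *Gzma*-led cells also differed in other receptors. They had 101, 35.1 and 73.5 CPM of *Cx3cr1* against 6.19, 14.3 and 10.3 in the remaining CD8 T lymphocyte-like cells. *Cxcr6* went the other way, with 238, 299 and 204 CPM against 292, 408 and 396. *Cxcr3* was similar in both parts, with 97.2, 105 and 91.8 CPM in the *Gzma*-led cells and 88.7, 111 and 112 in the others.

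C1q macrophage-like cells had 3 of the 6 pairs with intervals apart. The log2 ratio was 0.58 for *Ccr2* (SD 0.17), 0.67 for *Cxcr4* (SD 0.32) and 0.49 for *Cx3cr1* (SD 0.11). The median of all genes tested in this class was 0.22, and 6.99% of its 10545 genes had intervals apart above the WT library. By the full rule 2.84% of its genes were called higher. *Ccr1* in the same cells had a log2 ratio of 0.25, near that median. Over the alternative settings these ratios ranged from 0.38 to 0.74 for *Ccr2*, from 0.43 to 1.37 for *Cxcr4*, from 0.30 to 1.02 for *Cx3cr1* and from 0.02 to 1.41 for *Ccr1*, so that the size of each depended on the processing while the sign did not. Leaving out either Aoah-/- library could not change the sign, since both lay above WT. Leaving out a B lymphocyte-like cluster removes none of these cells.

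The libraries were unlike in the make-up of this class. Its median UMI total was 1420, 4868 and 932, its median mitochondrial share was 9.31%, 5.03% and 16.7%, and its cluster L9, whose cells had few UMIs, held 753, 67 and 984 cells. L9 had 68.9, 173 and 95.8 CPM of *Ccr2* and 146, 109 and 93.4 CPM of *Cx3cr1*. Without L9, which was left out after its values were seen, the log2 ratio was 0.53 for *Ccr2*, 0.43 for *Cxcr4*, 0.30 for *Cx3cr1* and 0.02 for *Ccr1*. The direction for the first 3 receptors was the same within both other clusters. In L17, *Ccr2* had 227, 272 and 180.2 CPM, *Cxcr4* 342, 427 and 309.9 and *Cx3cr1* 568, 593 and 482. In L18, led by *Mmp12*, *Gpnmb* and *Trem2*, *Ccr2* had 158, 119.6 and 64.7 CPM, *Cxcr4* 290.0, 328 and 164 and *Cx3cr1* 478, 458 and 344. The 10 Ly6c2 monocyte markers were all detected in the class and summed to 258, 163 and 121 CPM, with 5 of 10 higher in both Aoah-/- libraries, against 8521 to 10098 CPM in Ly6c2 monocyte-like cells. The part of depth, of cell make-up and of monocyte RNA in these values was not tested.

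*Cxcr4* in patrolling monocyte-like cells had a log2 ratio of 0.41 (SD 0.08), with 1.28-fold and 1.38-fold in the Aoah-/- mice, and it ranged from 0.35 to 0.50 over the settings. In this class 0.976% of the genes had intervals apart above WT. Neutrophil-like cells also had *Cxcr4*, and the neutrophil markers of this class moved in the same direction, as given above for *Cxcr2*. C1q macrophage-like cells had *Cxcr4* too, with 279.5, 381 and 208 CPM. The 10 C1q macrophage markers summed to 3914, 4515 and 5889 CPM in patrolling monocyte-like cells, and 2 of the 10 were higher in both Aoah-/- libraries. The part of RNA from either class in these values was not tested. *Cx3cr1*, by which patrolling monocytes are often known, had Aoah-/- libraries on different sides of WT in this class, with a log2 ratio of -0.12 (SD 0.36).

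Of the 13 pairs with both Aoah-/- libraries below WT, 10 were in lymphocyte or natural killer classes, which supplied 33 of the 69 pairs, and 30.1% of all gene pairs in those classes lay below WT in both. None met the rule of intervals apart. *Ccr6* in CD4 T lymphocyte-like cells was farthest below, with 4.26, 18.2 and 26.7 CPM and a log2 ratio of -1.25 (SD 1.48) from 67 UMIs. In natural killer-like cells the receptors below WT were *Cxcr3* (log2 ratio -1.14, SD 0.49, 67 UMIs) and *Cxcr6* (-0.80, SD 0.01). In regulatory T lymphocyte-like cells the log2 ratio was -0.57 for *Cxcr3* (SD 0.06) and -0.60 for *Ccr7* (SD 0.59). *Ccr7* in unsplit T lymphocyte-like cells had -0.37 (SD 0.08).

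The share of cells with a receptor UMI followed the levels. In neutrophil-like cells thinned to 1000 UMIs, 49.9%, 49.5% and 50% had a *Ccr1* UMI and 47.4%, 44.9% and 44.4% a *Cxcr2* UMI. Tubule-like cells, whose median UMI total was higher, had *Ccr1* in 0.123%, 0.22% and 0.0113% and *Cxcr2* in 0.0738%, 0.122% and 0.0450%. *Cx3cr1* was found in 35.7% (32.5 to 39.0), 38.9% (35.9 to 41.9) and 26.7% (23.5 to 30.1) of thinned C1q macrophage-like cells, and thinning left out 628, 0 and 818 cells there. Without thinning the shares were 43.0%, 76.1% and 28.9%. *Ccr7* was found in 74.1%, 78.6% and 57.7% of 26 to 28 thinned mature dendritic-like cells per library, with overlapping intervals. The mean of the Aoah-/- libraries was 18.6 percentage points above WT, but the difference was -3.51 points when cells were thinned to 500 UMIs. In CD4 T lymphocyte-like cells, *Cxcr6* was found in 16.7% (12.8 to 21.2), 28.6% (24.3 to 33.2) and 31.7% (27.5 to 36.1), so that Aoah-/- mouse 2 lay apart from both other libraries.

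**Figure D5:**
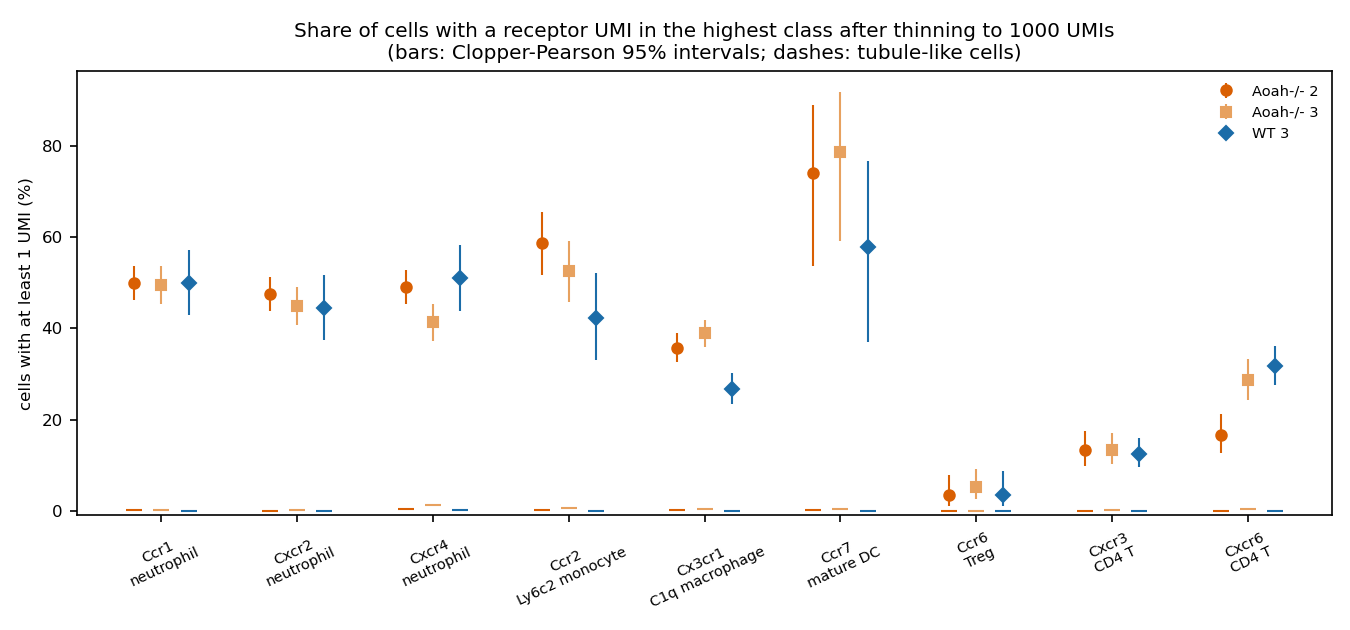
Percent of cells with at least 1 UMI of a receptor in its highest class after thinning each cell to 1000 UMIs, by library, with Clopper-Pearson 95% intervals as bars and dashes for tubule-like cells. The shares of *Ccr1* and *Cxcr2* lie close together in the 3 libraries, whereas *Cx3cr1* is lower in the WT mouse and *Cxcr6* in Aoah-/- mouse 2.

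Genes with a pattern most like that of each receptor were named from the Pearson r of log2(CPM + 10) over 42 values, 14 classes in 3 libraries, among 5895 genes; classes of a library share its depth and free RNA, and the r is a description. *Cxcr2* was nearest to *Retnlg* (0.991), *Il1f9* (0.981) and *Nlrp12* (0.975), and *Ccr1* to *F630028O10Rik* (0.927), *Siglece* (0.922) and *Lilra6* (0.921). *Cxcr6* was nearest to *Ifng* (0.944), *Zap70* (0.938) and *Gprin3* (0.931), and *Cxcr3* to *Cd28* (0.871), *Gprin3* (0.859) and *Sh2b1* (0.857). *Cx3cr1* went with *Fcgr1* (0.886) and *Clec4a1* (0.877). For *Ccr2* (*Eif4e3*, 0.838, *Dpysl2*, 0.809, and *Fermt3*, 0.782), *Ccr7* (*Dph5*, 0.80, *Gtpbp4*, 0.783, and *H2-Eb2*, 0.770), *Cxcr4* (*Ddx3x*, 0.848, and *Sec14l1*, 0.838) and *Ccr6* (*Cpm*, 0.772, *Dusp4*, 0.762, and *Mast4*, 0.742) the likeness was weaker. *Retnlg*, *Cd28* and *Fcgr1* were also markers by which classes had been named.

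The other genes of the pathway were taken from lists of further receptors, atypical receptors, ligands and signalling genes. Of 9 further receptors, 4 reached 50 CPM in a leukocyte class: *Ccr9*, the receptor of CCL25, in plasmacytoid dendritic-like cells with 699, 989 and 954 CPM, *Ccr10* in plasma-like cells with 135, 255 and 290.1 CPM, *Cxcr5* in B lymphocyte-like cells with 249.8, 199 and 184 CPM, and *Xcr1* in conventional type 2 dendritic-like cells with 97.6, 109.7 and 48.4 CPM. The *Xcr1* UMIs came almost wholly from 42, 53 and 40 cells of that class that were named conventional type 1 dendritic-like at resolution 2, with 421, 453 and 218 CPM, and the rest of the class held 0, 0 and 6 UMIs. Of their 12 pairs tested in leukocytes 1 was called higher, *Xcr1* in that class, and 1 lower, *Ccr9* in CD4 T lymphocyte-like cells with 6.39, 8.36 and 24.0 CPM. Among all genes, 0.934% of the pairs in leukocyte classes were called higher and 0.352% lower. Among the 5 atypical receptors, which bind chemokines without this signalling, *Ccrl2* was the one at 50 CPM in a leukocyte class, with 1487, 1791 and 1888 CPM in neutrophil-like cells. Of their leukocyte pairs 0 of 12 were called, against 1.29% of the pairs of all genes. In kidney cell classes 2 of 14 pairs were called higher and 3 lower, against 4.90% and 2.54% of all gene pairs there. *Ackr3* was lower in fibroblast- or pericyte-like cells (60.4, 16.5 and 456 CPM) and in tubule-like cells (22.5, 23.9 and 43.8 CPM), and *Ackr2* in the former. *Ccrl2* was called higher in both classes. The fibroblast- or pericyte-like class differed in make-up between the libraries. Its cluster led by *Rgs5* held 52, 122 and 22 cells, and that led by *Dcn* and *Mgp* 34, 142 and 363. The last cluster, with *Upk3b* among its leading genes, held 1, 0 and 150 cells. The part of this make-up in the calls of the class was not tested. Of 177 leukocyte pairs of the 14 signalling genes found, 2 were called higher and 0 lower, against 0.934% and 0.352% of the pairs of all genes. Both were in C1q macrophage-like cells, *Dock2* with 104, 114 and 69.4 CPM and *Pik3cg* with 29.0, 36.6 and 18.9 CPM. In that class 2.84% of all genes were called higher. In kidney cell classes 14 of 66 pairs of these genes were called higher and 1 lower, against 4.90% and 2.54% of all gene pairs there.

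The ligands had 113 pairs tested in leukocytes, of which 14 were called higher and 8 lower, against the 0.934% and 0.352% of all pairs given above. In tubule, injured tubule, endothelial, urothelial and fibroblast- or pericyte-like cells, 35 of 81 ligand pairs were called higher and 8 lower, against 4.90% and 2.54% of 62271 pairs of all genes in these classes. Many of the higher calls were in tubule-like cells, the class taken as the background above. Their levels there ranged from *Cxcl3* with 0.439, 0.552 and 0.0580 CPM to *Cxcl16* with 71.2, 66.6 and 38.7 CPM. The part of free RNA in the calls of kidney cells was not tested. Ligands of CCR2 were highest in C1q macrophage-like cells by the mean of the libraries. They were not higher there in the knockouts: *Ccl2* had 430.5, 484 and 584 CPM, *Ccl7* 193, 209 and 261 and *Ccl12* 379, 406 and 485. *Ccl8*, in the same cells, was called lower with 196, 221 and 343 CPM. Elsewhere their calls went both ways. In fibroblast- or pericyte-like cells *Ccl2* (99.05, 16.5 and 362.6 CPM) and *Ccl7* (12.1, 16.5 and 296.8 CPM) were called lower. In the WT mouse this *Ccl7* level was above that of C1q macrophage-like cells. The make-up of the fibroblast- or pericyte-like class differed between the libraries, as given above, and its part in the ligand calls was not tested. *Ccl2* was also called lower in conventional type 2 dendritic-like cells and *Ccl12* in urothelial-like cells. In tubule-like cells *Ccl2* (3.62, 2.87 and 1.66 CPM) and *Ccl12* (1.10, 3.16 and 0.614 CPM) were called higher. Of the CXCR2 ligands, *Cxcl2* was abundant in neutrophil-like cells in each library (8004, 8346 and 8154 CPM), *Cxcl3* was called higher there (332, 359 and 108 CPM), and *Cxcl1* was called higher in C1q macrophage-like cells (235, 173 and 93.1 CPM) but lower in fibroblast- or pericyte-like cells (217, 92.1 and 725 CPM). Calls of *Cxcl1* were also higher in endothelial-like cells (62.3, 58.6 and 31.2 CPM) and tubule-like cells (30.7, 23.8 and 10.2 CPM). *Cxcl5* was called higher in tubule-like cells (2.59, 0.331 and 0.0812 CPM) and in injured tubule-like cells (57.2, 104 and 30.2 CPM). By the mean of the libraries *Cxcl1* was also highest in that class, with 553, 503 and 374 CPM, although fibroblast- or pericyte-like cells had more in the WT mouse.

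Several ligand calls moved with the level of the same gene in tubule-like cells. *Ccl5* was called higher in neutrophil-, B lymphocyte-, plasmacytoid dendritic- and patrolling monocyte-like cells, where it had for instance 227, 452 and 42.7 CPM in neutrophil-like cells, and it had 28.8, 53.6 and 9.13 CPM in tubule-like cells. Its level in natural killer-like cells was 17326, 16478 and 12152 CPM. *Cxcl2*, called higher in 5 leukocyte classes outside the neutrophils, had 42.8, 33.5 and 5.03 CPM in tubule-like cells, in the same order of genotypes. It was also called higher in tubule-, fibroblast- or pericyte-, endothelial- and urothelial-like cells. Other calls went against the tubule-like level. *Ccl5* was called lower in Ly6c2 monocyte-like cells with 98.7, 123 and 268.5 CPM. *Cxcl10* was called lower in neutrophil- and CD8 T lymphocyte-like cells but higher in tubule-like cells, with 30.5, 27.5 and 17.1 CPM in the last. The part of free RNA in these calls was not tested. *Cxcl16*, the ligand of CXCR6, had 719.7, 749 and 695 CPM in C1q macrophage-like cells, and *Cx3cl1* had 70.8, 54.6 and 66.5 CPM in injured tubule-like cells. *Cxcl12* was highest by the mean of the libraries in fibroblast- or pericyte-like cells, with 483, 121 and 107 CPM from 87, 264 and 535 cells. Endothelial-like cells had 109.6, 78.1 and 160.7 CPM of it and were higher in the WT mouse.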

How the data were processed

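The deposited matrices hold raw UMI counts per gene and barcode, 1 matrix per library. Per the labels, libraries were made with a Chromium Single Cell 3′ v2 kit from collagenase-digested kidneys without a sort, and the submitters' processing notes name Cell Ranger 3.1.0, STAR, Seurat 4.2.0 and mm10, whereas the matrix headers name Cell Ranger 6.1.2. The receptors and all gene lists were chosen with earlier results of these data known.

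Barcodes under 200 genes or over 50% mitochondrial UMIs were removed. The remaining cells were clustered in scanpy 1.11.5 from 2000 variable genes with 50 principal components, and leukocytes again with 30, using 15 neighbours and resolution 1. Clusters were named from fixed markers. Counts were summed per class and library, and calls needed 30 UMIs and 1.5-fold. Shares were taken after thinning each cell to 1000 UMIs. Intervals came from scipy 1.17.1. The genes named beside the receptors are the 3 with the highest Pearson r to each receptor, of which some are not reported here, and the listed pathway genes. The call step was tested on simulated data. The labels give the libraries replicate numbers, and a single WT library allows no measure of the spread within WT.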

Additional observations from a re-analysis of the deposited data

How the results depend on the processing

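No paired analysis was possible, since the WT group is a single library and equal replicate numbers were not known to mark pairs. The pair called, *Ccr2* in CD8 T lymphocyte-like cells, kept its sign in 13 of 13 settings and its call in 11. Some of these settings could not change either. Each Aoah-/- library met the rule by itself, so leaving out either keeps the call. Leaving out a B lymphocyte- or C1q macrophage-like cluster removes none of these cells. The count of receptor and class pairs called, 1 as reported, was 2 with at most 20% mitochondrial UMIs, 2 with at least 500 genes per cell, 2 with receptors and ligands in the clustering, 3 without the 10% highest Scrublet scores, 3 with the mean of per-cell values, 5 at resolution 2 and 0 with 2-fold for a call. Leaving out 1 Aoah-/- library gave 8 to 11 pairs (8 without replicate 2, 11 without replicate 3), and in the receptor's highest class 0 to 1 called higher and 0 to 1 called lower. The mean of per-cell values and resolution 2 each gave 1 receptor called higher in its highest class. With 1 Aoah-/- library left out, a call needs only 1 knockout library, which is a weaker rule for every gene. The share of all gene pairs called is not given for these settings, so the counts are not set against it. The cause of these changes in the counts was not tested.

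The pairs gained were *Ccr1* in C1q macrophage-like cells (mean of per-cell values, resolution 2), *Cx3cr1* and *Cxcr4* there (mean of per-cell values), *Ccr2* in patrolling monocyte-like cells (without the highest Scrublet scores) and *Ccr7* in mature dendritic-like cells (resolution 2), among others. Differences in the share of cells with a UMI, mean of Aoah-/- minus WT in percentage points, were 0.195 for *Ccr1*, -3.51 for *Ccr7*, -2.22 for *Cxcr2* and 3.81 for *Cxcr3* with thinning to 500 UMIs. Without thinning they were -2.0 for *Ccr1*, 8.73 for *Ccr2*, 3.0 for *Ccr6*, 7.39 for *Cxcr3* and 30.7 for *Cx3cr1*. With 1000 UMIs these were -0.291 (*Ccr1*), 13.2 (*Ccr2*), 0.811 (*Ccr6*), 18.6 (*Ccr7*), 1.71 (*Cxcr2*), 0.794 (*Cxcr3*) and 10.6 (*Cx3cr1*). The settings without cluster L9 and without a B lymphocyte-like cluster were chosen after seeing the data. Mature dendritic-like cells were too few, or not named, under 2 of the 13 settings. *Ccr6* rests on few UMIs in every class, which limits what its levels can show.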

Other observations

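Clustering at resolution 2 separated a pair of small groups that lie inside the classes described above. T lymphocyte-like cells with *Il17a*, which encodes interleukin 17A, numbered 11, 31 and 48, in the order Aoah-/- mouse 2, Aoah-/- mouse 3 and WT mouse. All 90 of these cells belonged to the CD4 T lymphocyte-like class. They had 1046, 908 and 856 CPM of *Cxcr6* and 563, 491 and 522 CPM of *Ccr2*. *Ccr6*, known from T lymphocytes of this kind, had 0, 44.6 and 67.8 CPM there, and *Il17a* itself 804, 2440 and 1857 CPM. Dendritic-like cells with *Xcr1* (415, 453 and 218 CPM), a receptor of conventional type 1 dendritic cells, numbered 43, 53 and 40, and 135 of these 136 cells belonged to the conventional type 2 dendritic-like class. They had 415, 341 and 265 CPM of *Ccr2*, 48.3, 156 and 51.5 CPM of *Ccr7* and 62.5, 72.5 and 51.5 CPM of *Cxcr3*. The groups were not compared between genotypes.

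By the mean of the libraries, ligands of CXCR3 were highest in phagocytes. *Cxcl9* had 144, 218 and 146 CPM in conventional type 2 dendritic-like cells, and *Cxcl10* 342, 297 and 336 CPM in C1q macrophage-like cells, although plasma-like cells had more *Cxcl10* in Aoah-/- mouse 3 (51.6, 704 and 22.3 CPM). *Cxcl10* was called lower in neutrophil-like cells, with 39.6, 74.0 and 198 CPM, and in CD8 T lymphocyte-like cells, with 39.0, 33.8 and 63.5 CPM. *Ccl20*, the ligand of CCR6, had 97.8, 105 and 66.5 CPM in injured tubule-like cells. Among ligands of CCR1, *Ccl9* was called lower in neutrophil-like cells with 59.8, 47.8 and 218 CPM, and *Ccl6* in conventional type 2 dendritic-like cells with 663, 749.8 and 1151 CPM. Both genes were called higher in fibroblast- or pericyte-, injured tubule- and tubule-like cells. In fibroblast- or pericyte-like cells *Ccl9* had 41.1, 33.0 and 2.80 CPM and *Ccl6* 45.9, 59.2 and 4.74 CPM. The part of free RNA in these calls was not tested.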
